A study of Drosophila melanogaster with 96 samples.

Results

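Heads of Drosophila melanogaster kept in a light-dark cycle (LD, 12 h of light and 12 h of darkness) were compared with heads of flies kept in constant darkness (DD), both at 25 °C and both at hour 0 of the day. The comparison rests on 8 of the 96 libraries of the series, chosen by their labels: 4 LD and 4 DD libraries, each set made of 2 biological replicates from day 4 and 2 from day 5. All are poly(A) RNA of whole heads of adult ISO1 flies, the inbred strain of the reference genome, labelled male. The 40 LD and DD libraries of hours 4 to 20 at 25 °C were used to estimate the spread between libraries and to ask whether hour 0 differed from the rest of the day. The labels do not say whether hour 0 is the time of lights-on or when darkness began for the DD flies, and they give no date or batch, so a difference in incubator or collection cannot be told apart from the light condition. In RNA from whole heads, fewer cells of a type and less RNA per cell cannot be told apart.

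The fly clock is a feedback loop of transcription. The activators Clk and cyc switch on per and tim, whose proteins return to the nucleus and block the activators, and also vri and Pdp1, which repress and activate the Clk gene. Light enters the loop through cry, a blue-light receptor that marks the tim protein for breakdown, so a light-dark cycle sets the phase that the loop keeps by itself in darkness. In the head most of the clock RNA comes from photoreceptors and glia besides the brain's clock neurons, and the photoreceptors hold the rhodopsins and the signalling cascade of vision.

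The 8 libraries held 17.3 to 27.2 M counts (1 M is 1e+06). Libraries that shared a replicate number resembled each other more than libraries that shared a condition: the first principal component separated replicate 1 from replicate 2 in both conditions and held 67.4% of the variance of 8347 genes at 5 CPM (counts per 1e+06 counts) or more. The replicate 2 libraries had less photoreceptor RNA, with a sum of 9 photoreceptor markers other than ninaE of 17709 and 19619 CPM in LD and 21056 and 21921 CPM in DD. In the replicate 1 libraries this sum was 32457 and 33274 CPM in LD and 34352 and 29983 CPM in DD. The yolk protein genes Yp1, Yp2 and Yp3, whose RNA marks the female fat body, also split by replicate number. Their sum was 63454 and 53861 CPM in LD and 53049 and 47795 CPM in DD in replicate 2. In replicate 1 it was 36318 and 24073 CPM in LD and 40550 and 28897 CPM in DD. The RNA roX1, of male dosage compensation, was at 331 and 334 CPM in LD and 498 and 472 CPM in DD in replicate 2. In replicate 1 it was at 550 and 601 CPM in LD and 578 and 556 CPM in DD. The yolk protein sum was thus higher in LD than in DD in replicate 2 and lower in replicate 1. Whether heads of both sexes were present, or in unlike shares in LD and DD, was not tested. Photoreceptor, neuronal, glial, muscle, fat body and hemocyte markers were all detected in sums that overlapped between LD and DD, while 5 of 9 accessory gland markers were at 0 in all 8 libraries. Differences between replicate numbers widen such ranges, so overlap does not show that the mix of cells was alike.

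Few genes passed the test between LD and DD at hour 0 when libraries were not paired. Among them were genes of the clock, of vision and of the heat shock response. Of 10967 genes tested, 97 (0.884%) passed the threshold, an adjusted p-value of 0.05 in edgeR's quasi-likelihood test, and are called here. Of these, 53 (0.483%) were higher in LD and 44 (0.401%) were lower in LD. The changes were moderate, with a median size of 0.44 on the log2 scale, and 10 genes reached 2-fold. Of those 10 genes, Ugt35B1, NT1 and CG8170 were higher in LD, and Hsp22, CG4456, CG5883, CG6280, flz, Cp19 and lncRNA:cherub were lower in LD. NT1, CG8170, CG6280, flz, Cp19 and lncRNA:cherub averaged under 5 CPM. The 4 LD and the 4 DD values did not overlap for 396 genes (3.61%), called or not. The median log2 fold change of all tested genes was 0.0013.

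When each LD library was paired with the DD library of the same day and replicate number, 207 genes were called (1.89%), 111 higher and 96 lower in LD. These held 95 of the 97 genes, all but lncRNA:cherub and lncRNA:CR32582. The fit without pairing, used below unless stated, leaves the difference between replicate numbers in the spread. A gene that did not pass in it may therefore pass with pairing. The count without pairing depended on both sets of replicates: with the replicate 2 libraries alone 34 genes were called, and with the replicate 1 libraries alone 2 genes were called, vri and Ugt35B1. It depended as much on the spread taken from the other hours: in a fit of the 8 hour 0 libraries alone 5 genes were called without pairing and 355 with it. Below, log2 fold changes are LD over DD with their standard errors (SE), the 4 values of a gene are given as day 4 replicates 1 and 2 and then day 5 replicates 1 and 2, and the pairs are LD and DD libraries of the same day and replicate number.

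**Figure D1:**
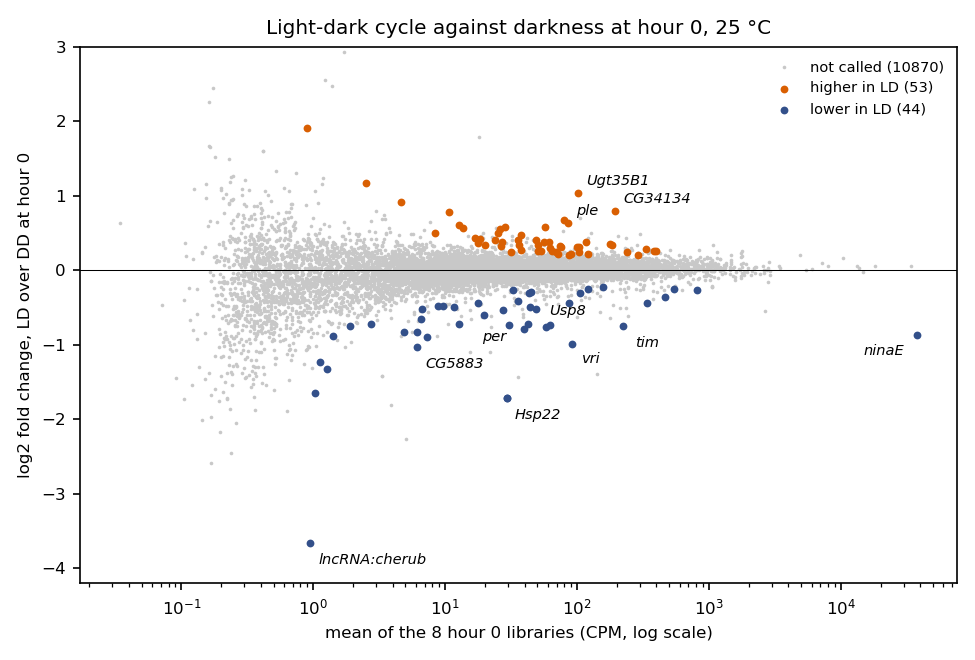
Log2 fold change of LD over DD at hour 0 (vertical axis) against the mean CPM of the 8 libraries (horizontal axis, log scale) for the 10967 tested genes. The 53 genes called higher in LD are orange, the 44 called lower in LD are blue and the rest are grey; ninaE stands at the far right, and lncRNA:cherub, at the bottom, averaged under 5 CPM.

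Within the core clock, vri, tim and per were lower in LD, and the other members did not pass the test. The gene vri (FBgn0016076, chromosome 2L, 5288944 to 5311223 on the plus strand, in the BDGP6.54 annotation), which codes for a repressor of Clk, had 59.2, 53.0, 64.7 and 67.8 CPM in LD heads, against 116, 105, 140.0 and 123 CPM in DD heads. Every LD library was below every DD library, with means of 61.2 ± 6.52 CPM in LD and 121 ± 14.6 CPM in DD (SD, n = 4 each). The log2 fold change was -0.99 (SE 0.11, adjusted p = 5.48e-08 by edgeR), and the 4 pairs lay between -1.11 and -0.86.

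The gene tim (FBgn0014396, chromosome 2L, 3493986 to 3508119 on the minus strand), partner of per in the repressor complex, had 177, 142, 189 and 159 CPM in LD heads and 289.6, 229, 321 and 276 CPM in DD heads. The groups did not overlap, and in both the replicate 1 libraries were the higher ones on each day. Its log2 fold change was -0.74 (SE 0.12, adjusted p = 0.000452), with pairs between -0.80 and -0.69. The small nucleolar RNA gene snoRNA:Or-CD16, which lies within tim on the same strand, had a log2 fold change of -0.89 (adjusted p = 0.00281); reads of the pair could have been divided in the counting, so it is no separate evidence. On the opposite strand tim overlaps lncRNA:CR46495, from which it may also not have been told apart.

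The gene per (FBgn0003068, chromosome X, 2685580 to 2692780 on the plus strand) had 32.9, 27.6, 38.8 and 28.6 CPM in LD heads, against 56.2, 46.3, 59.5 and 48.6 CPM in DD heads. Again no LD value reached the DD values, and replicate 1 was above replicate 2 on each day in both conditions. The log2 fold change was -0.72 (SE 0.13, adjusted p = 0.00191), with pairs between -0.77 and -0.62. The gene per overlaps dyw on the opposite strand, and the strand setting of the counting is not given in the sources used here.

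The other members of the core clock were closer to equal. Pdp1, the activator of Clk, averaged 341 ± 17.034 CPM in LD and 412 ± 57.0 CPM in DD, with no overlap of the 4 and 4 values but an adjusted p of 0.382 for a log2 fold change of -0.27 (SE 0.10). The repressor gene cwo averaged 80.5 CPM in LD and 88.9 CPM in DD (log2 fold change -0.14, SE 0.076, adjusted p = 0.703). For the activators, Clk averaged 36.2 ± 9.08 CPM in LD and 31.6 ± 6.94 CPM in DD (log2 fold change 0.19, adjusted p = 0.873), and cyc 25.4 CPM in LD and 25.6 CPM in DD (-0.01, adjusted p = 0.999). The blue-light receptor gene cry averaged 169 ± 7.84 CPM in LD and 154 ± 8.61 CPM in DD and was higher in LD in 4 of 4 pairs, with a log2 fold change of 0.13 that did not pass the test (adjusted p = 0.569). The photolyases phr and phr6-4, relatives of cry that repair DNA, gave -0.039 (adjusted p = 0.999) and -0.42 (adjusted p = 0.716). In all, 0 of the 8 core clock genes were called higher and 3 lower, beside 0.483% higher and 0.401% lower of all tested genes. Their median log2 fold change was -0.21, beside 0.0013 over all tested genes.

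Of 18 genes for clock kinases, phosphatases and protein breakdown, Usp8 was the only 1 called, as lower, beside 0.401% of all tested genes, and the median log2 fold change was 0.013. Usp8 codes for a ubiquitin protease that acts on the Clk protein. Usp8 had 41.5, 39.7, 45.4 and 35.9 CPM in LD heads, against 58.7, 53.0, 63.2 and 56.9 CPM in DD heads. The groups were separate, the 4 pairs lay between -0.67 and -0.42, and the log2 fold change was -0.51 (SE 0.10, adjusted p = 0.00328). The kinases dco (doubletime) and sgg (shaggy), which phosphorylate per and tim, had log2 fold changes of 0.017 (adjusted p = 0.999) and 0.051 (adjusted p = 0.999).

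Among 21 clock peptides and output genes, 1 was called higher, beside 0.483% of all tested genes, and the median log2 fold change was 0.041. Pdf, the neuropeptide of the lateral clock neurons that keeps them in step, had 80.4, 86.7, 82.5 and 79.2 CPM in LD heads, against 69.4, 67.1, 63.5 and 61.4 CPM in DD heads. All 4 LD values were above all 4 DD values, and the log2 fold change was 0.33 (SE 0.085, adjusted p = 0.0433). This call was lost with any 1 of the 8 libraries left out (adjusted p up to 0.214), and without a filter on low counts (adjusted p = 0.0577). With pairing Pdf was called too (adjusted p = 0.0167 by edgeR). Over the other hours it was also higher in LD (0.48, adjusted p = 7.89e-13 by edgeR). It was called at each of them, with log2 differences between 0.39 and 0.55, so hour 0 had the smallest. With pairing, takeout (to), a feeding-related output gene, was also higher in LD (log2 fold change 0.38, adjusted p = 0.0296, against 0.495 without pairing). Slob, which binds the Slowpoke potassium channel, was lower with pairing (log2 fold change -0.51, adjusted p = 0.000415, against 0.257 without).

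**Figure D2:**
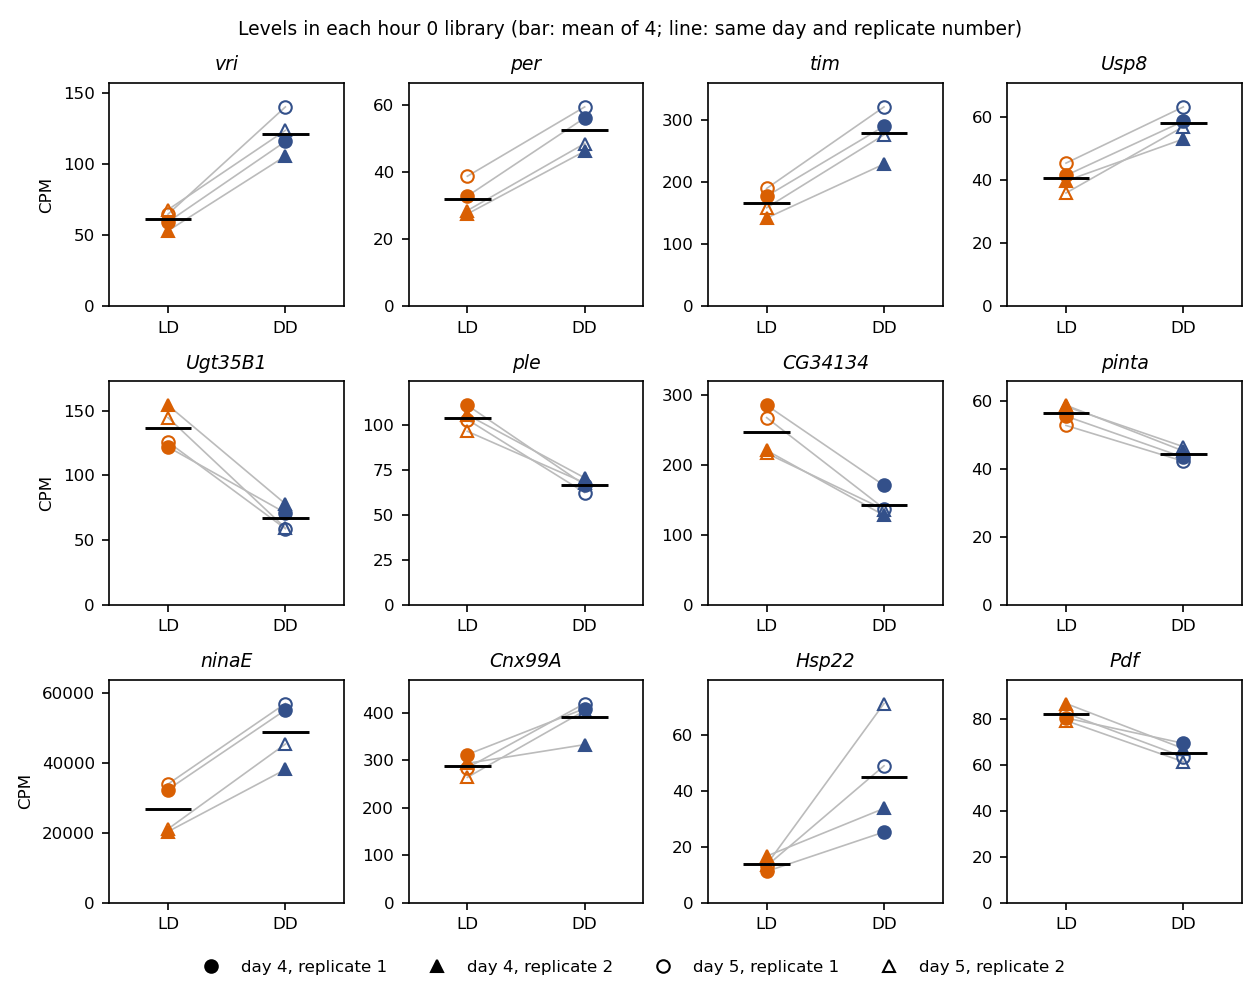
CPM of 12 genes in each LD (left, orange) and DD (right, blue) library at hour 0; circles are replicate 1, triangles replicate 2, filled symbols day 4 and open symbols day 5, black bars are means of 4 and grey lines join libraries of the same day and replicate number. In each panel the LD and DD values do not overlap.

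The hour 0 difference was set against the difference between LD and DD averaged over the 5 other hours. Of the 10967 genes, 81 (0.739%) had an hour 0 difference unlike that average, 48 above it and 33 below it, and 169 (1.54%) with pairing. Of the 97 genes called at hour 0, 38 were among these 81. The average of the other 5 hours itself differed between LD and DD for 2072 genes (18.9%; 3399 with pairing, 31%), from 5 times as many libraries. Of the 97 genes, 41 were also called over the other hours in the same direction, which is 42.3% of the 97 and 1.98% of the 2072. Another 15 were called in the opposite direction, and 41 were not called over the other hours. The mean of the other hours can hold differences of opposite sign, so a difference from it does not show that a gene differed at hour 0 alone.

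The contrast with the mean of the other hours was called for vri, tim and per, all of which were also lower in LD at hour 4. Over the day vri in LD heads averaged 61.2 CPM at hour 0, 51.8 at hour 4, 155 at hour 8, 329.6 at hour 12, 314 at hour 16 and 143 at hour 20. In DD heads vri averaged 121, 151, 161, 195, 157 and 150.4 CPM at the same hours. Its difference over the other 5 hours was 0.018 (SE 0.046, adjusted p = 0.823), and the hour 0 difference lay -1.0 from it (SE 0.11, adjusted p = 2.42e-07). By hour, the log2 difference of vri was -1.55 at hour 4, -0.057 at hour 8, 0.76 at hour 12, 1.0 at hour 16 and -0.07 at hour 20. It was thus larger at hour 4 than at hour 0, and of opposite sign at hours 12 and 16.

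The same contrast was -0.59 for tim (adjusted p = 0.0135) and -0.69 for per (adjusted p = 0.00579). The log2 difference of tim was -2.07 at hour 4 and -0.72 at hour 8, and then 0.72, 0.83 and 0.51 at hours 12, 16 and 20. That of per was -1.01 at hour 4 and -0.25 at hour 8, and then 0.31, 0.82 and -0.019 at hours 12, 16 and 20. Both were therefore further below 0 at hour 4 than at hour 0. Clk and cry, which were not called at hour 0, lay above their differences at the other hours, by 0.65 (adjusted p = 0.0178) and 0.31 (adjusted p = 0.00664). In Clk the other hours averaged -0.45 (adjusted p = 5.6e-07), with 10.8 CPM in LD and 29.1 CPM in DD at hour 16. Thus 5 of the 8 core clock genes had an hour 0 difference unlike the other hours, beside 0.739% of all tested genes. Usp8 did too (-0.45, adjusted p = 0.0363); in LD heads it averaged 40.6 CPM at hour 0, 49.3 CPM at hour 4 and 169 CPM at hour 12, and in DD heads 57.9, 77.8 and 123 CPM at these hours.

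**Figure D3:**
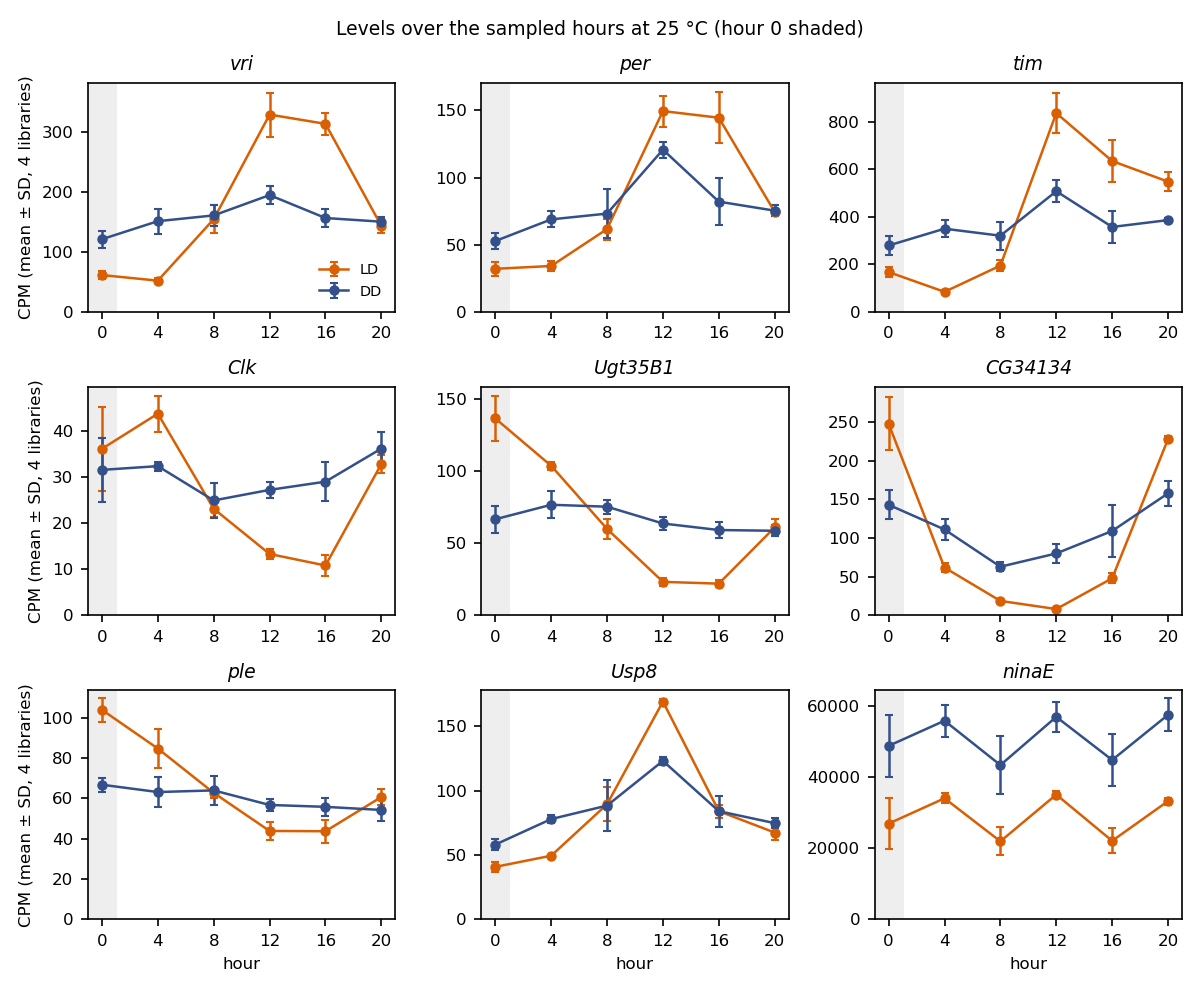
Mean CPM (± SD, 4 libraries) of 9 genes at hours 0 to 20 in LD (orange) and DD (blue) at 25 °C, with hour 0 shaded. The LD and DD lines of vri, per, tim, Clk, Ugt35B1, CG34134, ple and Usp8 cross during the day, whereas ninaE is lower in LD at every hour.

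The highest hour of LD heads fell at hour 0 for Ugt35B1, ple and CG34134. Ugt35B1 (FBgn0026314, chromosome 3R, 11168503 to 11170246 on the minus strand) codes for a UDP-glycosyltransferase, an enzyme class that makes small molecules soluble by adding a sugar. It had 122, 154, 126 and 145 CPM in LD heads, against 70.9, 77.9, 58.7 and 59.2 CPM in DD heads. The lowest LD library was well above the highest DD library, and the pairs lay between 0.78 and 1.29. Ugt35B1 had the smallest adjusted p of all genes at hour 0, 2.43e-09, with a log2 fold change of 1.04 (SE 0.10). The mean difference of the other hours was of opposite sign (-0.54, SE 0.044, adjusted p = 1.34e-12). At hour 4 LD heads averaged 104 CPM and DD heads 76.7 CPM, and at hour 12 LD heads averaged 23.2 CPM and DD heads 63.7 CPM.

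The gene ple codes for tyrosine hydroxylase, the first enzyme of dopamine synthesis. It had 111, 105, 103 and 96.3 CPM in LD heads, against 66.4, 70.4, 62.2 and 67.7 CPM in DD heads. The 2 sets were far apart compared with their spread, with means of 104 ± 6.03 CPM in LD and 66.7 ± 3.40 CPM in DD (SD, n = 4 each). The log2 fold change was 0.64 (SE 0.09, adjusted p = 2.66e-05), against -0.034 over the other hours (adjusted p = 0.6; adjusted p of the difference 2.19e-05). In LD heads ple was highest at hour 0 and averaged 84.7 CPM at hour 4 and 43.7 CPM at hour 12; in DD heads it averaged 63.1 and 56.7 CPM at these hours. It was the only 1 of 17 histamine and monoamine genes called, beside 0.884% of all tested genes; their median log2 fold change was 0.016.

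CG34134, whose role is not known here, had 285, 221, 267 and 216 CPM in LD heads, against 170.4, 128, 137 and 136 CPM in DD heads, and the groups did not overlap. It was higher in LD by 0.79 at hour 0 (SE 0.15, adjusted p = 0.00222) and lower in LD over the other hours (log2 fold change -1.31, adjusted p = 4.24e-18), the largest positive contrast of the genes named by rule (2.10, adjusted p = 5.35e-12). In LD heads it averaged 8.15 CPM at hour 12 and 228 CPM at hour 20; in DD heads the averages were 80.0 and 158 CPM.

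Some genes differed between LD and DD in the mean of the other 5 hours without a call at hour 0. Jhe, the juvenile hormone esterase, averaged 7.56 CPM in LD and 6.18 CPM in DD at hour 0 (log2 fold change 0.29, adjusted p = 0.799), while the other hours averaged -1.33 (adjusted p = 1.62e-13). Its log2 difference was 0.59 at hour 4, -0.34 at hour 8, -2.05 at hour 12, -2.91 at hour 16 and -1.96 at hour 20, so the mean came from hours 12 to 20. CG14329 was alike in this, with 26.2 CPM in LD and 25.8 CPM in DD at hour 0 and a difference of -1.02 over the other hours (adjusted p = 1.34e-17), also largest at hours 12 and 16 (-2.21 and -2.03). In the other direction Tsp (thrombospondin, of the extracellular matrix), Cln3 (a lysosomal protein) and Hydr2 were higher in LD in the mean of the other hours, by 0.43, 0.51 and 0.23, and had hour 0 values of -0.15, -0.35 and -0.11 that did not pass the test (adjusted p = 0.652, 0.233 and 0.614). With pairing Cln3 passed at hour 0 as lower in LD (adjusted p = 0.0465).

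**Figure D4:**
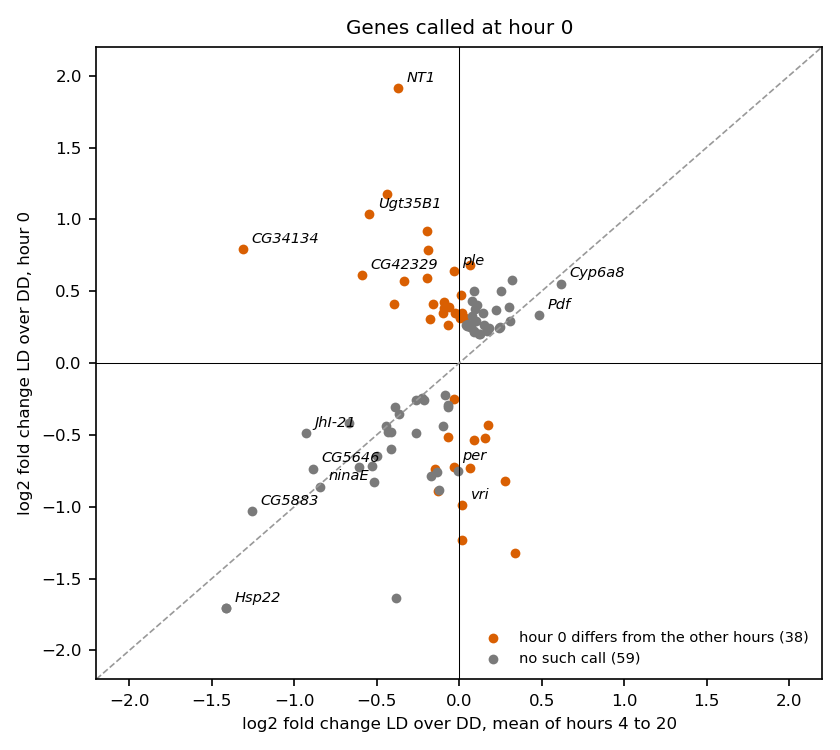
Log2 fold change of LD over DD at hour 0 (vertical axis) against the mean log2 fold change of hours 4 to 20 (horizontal axis) for the genes called at hour 0; lncRNA:cherub lies below the plotted range. The 38 orange genes had an hour 0 difference unlike the other hours, and genes near the dashed line of equality, such as ninaE and Hsp22, had similar values at both.

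The main rhodopsin gene ninaE, which codes for Rh1 of the outer photoreceptors, was lower in LD at hour 0 as at the other hours. ninaE (FBgn0002940, chromosome 3R, 19886255 to 19888206 on the minus strand) had 32371, 20348, 33939.6 and 21103 CPM in LD heads, against 55099.8, 38106, 56952 and 45365 CPM in DD heads. The groups did not overlap, and in each the replicate 2 libraries were the lower ones. The log2 fold change was -0.86 (SE 0.15, adjusted p = 0.00142), and over the other hours -0.84 (SE 0.069, adjusted p = 1.76e-12); the contrast of the hours was -0.016 (SE 0.17, adjusted p = 1). The sum of the 9 other photoreceptor markers was lower in replicate 2 than in replicate 1 in both groups. That split makes the ranges overlap, at 17709 to 33274 CPM in LD and 21056 to 34352 CPM in DD. The overlap therefore does not show that photoreceptor RNA was alike. By pair, LD and DD had 32457 and 34352, 17709 and 21056, 33274 and 29983, and 19619 and 21921 CPM. LD was the lower in each pair except day 5 replicate 1, and the difference was not tested.

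The 6 other rhodopsins did not pass the test. Rh3 and Rh4, of the inner ultraviolet photoreceptors, averaged 1103 and 1051 CPM in LD, against 1050.5 and 1008 CPM in DD, with log2 fold changes of 0.07 (SE 0.15) and 0.06 (SE 0.11). Rh5 (blue) and Rh6 (green) gave 0.11 (SE 0.11) and -0.05 (SE 0.13), Rh2 of the ocelli -0.065 (SE 0.078) and Rh7 -0.041 (SE 0.17). For Rh5 and Rh6 the other hours averaged 0.46 (adjusted p = 4.97e-09) and 0.34 (adjusted p = 2.65e-05), higher in LD; the contrast with hour 0 did not pass without pairing (adjusted p = 0.339 and 0.386) and passed with it (0.00847 and 0.0148). The median log2 fold change of the 7 rhodopsins was -0.041, with 0 called higher and 1 lower, beside 0.401% lower of all tested genes.

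Of 24 genes of the phototransduction cascade, 0 were called, beside 0.884% of all tested genes, and their median log2 fold change was -0.024. With pairing 2 of the 24 were called, both lower in LD, beside 1.89% called of all tested genes. The cation channel gene trpl averaged 2179.6 CPM in LD and 3176 CPM in DD (log2 fold change -0.60, adjusted p = 0.0019 with pairing and 0.503 without). The diacylglycerol kinase gene rdgA averaged 328 CPM in LD and 428 CPM in DD (-0.42, adjusted p = 0.0319 with pairing and 0.729 without).

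Among 11 genes for rhodopsin maturation and its chromophore, 1 was called higher and 1 lower in LD, beside 0.483% and 0.401% of all tested genes, with a median of -0.21. Cnx99A, the calnexin that helps Rh1 fold in the endoplasmic reticulum, had 312, 294, 284 and 264 CPM in LD heads, against 409, 333, 419.6 and 404 CPM in DD heads. No value overlapped, and the log2 fold change of -0.44 (SE 0.10, adjusted p = 0.0141) was close to that of the other hours (-0.44). The call was lost without LD day 5 replicate 2, DD day 5 replicate 1 or DD day 5 replicate 2 (adjusted p up to 0.096).

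The gene pinta, for a retinoid-binding protein of the retinal pigment cells needed to make the chromophore, went the other way. It had 55.6, 58.8, 52.8 and 58.4 CPM in LD heads, against 43.4, 45.3, 42.3 and 46.6 CPM in DD heads. The groups were separate, and the 4 pairs were nearly alike, between 0.32 and 0.38. Its log2 fold change was 0.35 at hour 0 (SE 0.069, adjusted p = 0.00328) and -0.10 over the other hours (adjusted p = 0.0208; adjusted p of the difference 0.000272). Pdh, a dehydrogenase of the same cells and pathway, averaged 1193 CPM in LD and 942 CPM in DD and was called with pairing (log2 fold change 0.34, adjusted p = 0.0155 with pairing and 0.322 without), against -0.51 over the other hours (adjusted p = 3.34e-09). Of 17 eye pigment genes (median -0.0079), st (scarlet), a transporter of brown pigment precursors, was lower in LD, at 9.79 ± 0.876 CPM, against 13.7 ± 1.76 CPM in DD (log2 fold change -0.49, adjusted p = 0.00981), the only 1 called, beside 0.401% of all tested genes. Its call was lost without LD day 4 replicate 2 or DD day 4 replicate 1 (adjusted p up to 0.0798), and with all 96 libraries in the fit (adjusted p = 0.107).

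Of 22 heat shock and chaperone genes, 0 were called higher and 5 lower in LD (4 loci, since CG4456 repeats Hsp22), beside 0.401% lower of all tested genes. The other 17 did not pass the test, and the median log2 fold change was -0.24, beside 0.0013 over all tested genes. Hsp22, a small heat shock protein of mitochondria, had 11.2, 16.7, 13.2 and 13.7 CPM in LD heads, against 25.3, 33.8, 49.0 and 71.3 CPM in DD heads. The LD values were close together, whereas the DD values spread widely and were highest on day 5. The log2 fold change was -1.71 (SE 0.34, adjusted p = 0.00359), and over the other hours -1.42 (adjusted p = 2.02e-09). CG4456, which overlaps Hsp22 on the same strand, carries identical values and cannot be counted apart from it.

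Hsp70Aa and Hsp70Ab, near-identical copies of the inducible Hsp70, averaged 7.42 and 8.06 CPM in LD, against 10.3 and 11.2 CPM in DD. Their log2 fold changes were both -0.48 (adjusted p = 0.00281 and 0.00874), and over the other hours -0.42 and -0.43 (adjusted p = 3.45e-10 and 2.07e-09 by edgeR). Reads could have been divided between the copies, and the call of Hsp70Ab was lost without LD day 4 replicate 2 or DD day 5 replicate 1 (adjusted p up to 0.144). Over the other hours 11 of the 22 heat shock and chaperone genes were called lower in LD, beside 996 of 10967 tested genes. DnaJ-1, a partner of Hsp70, averaged 145 CPM in LD and 168 CPM in DD (log2 fold change -0.22, adjusted p = 0.0298). Hsp70Bb was called only with pairing (adjusted p = 0.0473, against 0.0918 without).

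Among detoxifying enzymes, 2 UDP-glycosyltransferases and 4 P450s were called, all higher in LD, and 0 of 31 glutathione transferases. Of 22 UDP-glycosyltransferases, 2 were called higher and 0 lower, beside 0.483% and 0.401% of all tested genes, with a median log2 fold change of 0.13; besides Ugt35B1 this was Ugt302C1, at 83.3 ± 4.67 CPM in LD and 67.1 ± 2.90 CPM in DD (log2 fold change 0.31, adjusted p = 0.00186). With pairing 5 of 79 cytochrome P450 genes were higher and 2 lower, Cyp4c3 and Cyp4d21, beside 111 higher and 96 lower of 10967 tested genes. Without pairing 4 were called higher and 0 lower, with a median of 0.045. All 4, Cyp6a8, Cyp6a17, Cyp6a20 and Cyp6a21, lie in 1 cluster of related genes on chromosome 2R, so reads may have been divided between them.

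Cyp6a17, known for a part in temperature preference, averaged 114.96 ± 9.52 CPM in LD and 92.7 ± 4.73 CPM in DD, with no overlap of the values (log2 fold change 0.31, adjusted p = 0.000462; contrast with the other hours 0.28, adjusted p = 0.00443). Cyp6a20, known for a part in aggression, gave 0.27 (adjusted p = 0.0485), a call that was lost without any 1 of the LD libraries, DD day 4 replicate 1, DD day 5 replicate 1 or DD day 5 replicate 2 (adjusted p up to 0.213), and without a filter on low counts or with a filter of 1 CPM (adjusted p = 0.075 and 0.0548). Cyp6a21 gave 0.50 (adjusted p = 0.0305), lost without LD day 4 replicate 2, LD day 5 replicate 2, DD day 4 replicate 1, DD day 5 replicate 1 or DD day 5 replicate 2 (adjusted p up to 0.237). Cyp6a8 gave 0.55 (adjusted p = 0.0103), lost without LD day 4 replicate 2, LD day 5 replicate 2, DD day 4 replicate 1 or DD day 5 replicate 1 (adjusted p up to 0.148), and its LD and DD values overlapped; over the other hours it was 0.62 (adjusted p = 1.69e-11).

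In each of 4 further lists 1 gene was called without pairing, beside 0.884% of all tested genes. Hex-A, the hexokinase that opens glycolysis, was the only 1 of 21 sugar, glycogen and trehalose genes (median 0.072), at 311 ± 7.05 CPM in LD and 269.7 ± 7.29 CPM in DD (log2 fold change 0.20, adjusted p = 0.0414), and the call was lost with any 1 of the 8 libraries left out (adjusted p up to 0.214), and without a filter on low counts or with a filter of 1 CPM (adjusted p = 0.0664 and 0.0535). Sesn (sestrin), which restrains TORC1, was the only 1 of 17 insulin, AKH and nutrient signalling genes (median -0.013), at 39.975 ± 1.5049 CPM in LD and 49.0 ± 2.0004 CPM in DD (-0.29, adjusted p = 0.00328). Sesn overlaps CG46429 on the same strand, which was also called (-0.30, adjusted p = 0.00266), so reads may have been divided between them. JhI-21, an amino acid transporter, was the only 1 of 12 juvenile hormone genes (median 0.085), at 36.8 ± 4.15 CPM in LD and 51.6 ± 6.85 CPM in DD (-0.49, adjusted p = 0.0414). That call was lost without LD day 4 replicate 1, LD day 5 replicate 1, LD day 5 replicate 2, DD day 5 replicate 1 or DD day 5 replicate 2 (adjusted p up to 0.254), and without a filter on low counts (adjusted p = 0.0677), while the other hours averaged -0.93 (adjusted p = 1.69e-16). TwdlT, a Tweedle cuticle protein, was the only 1 of 41 cuticle genes (median -0.029), at 16.4 CPM in LD and 11.0 CPM in DD (0.57, adjusted p = 0.0414), lost without LD day 4 replicate 1, LD day 5 replicate 1 or any 1 of the DD libraries (adjusted p up to 0.253).

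**Figure D5:**
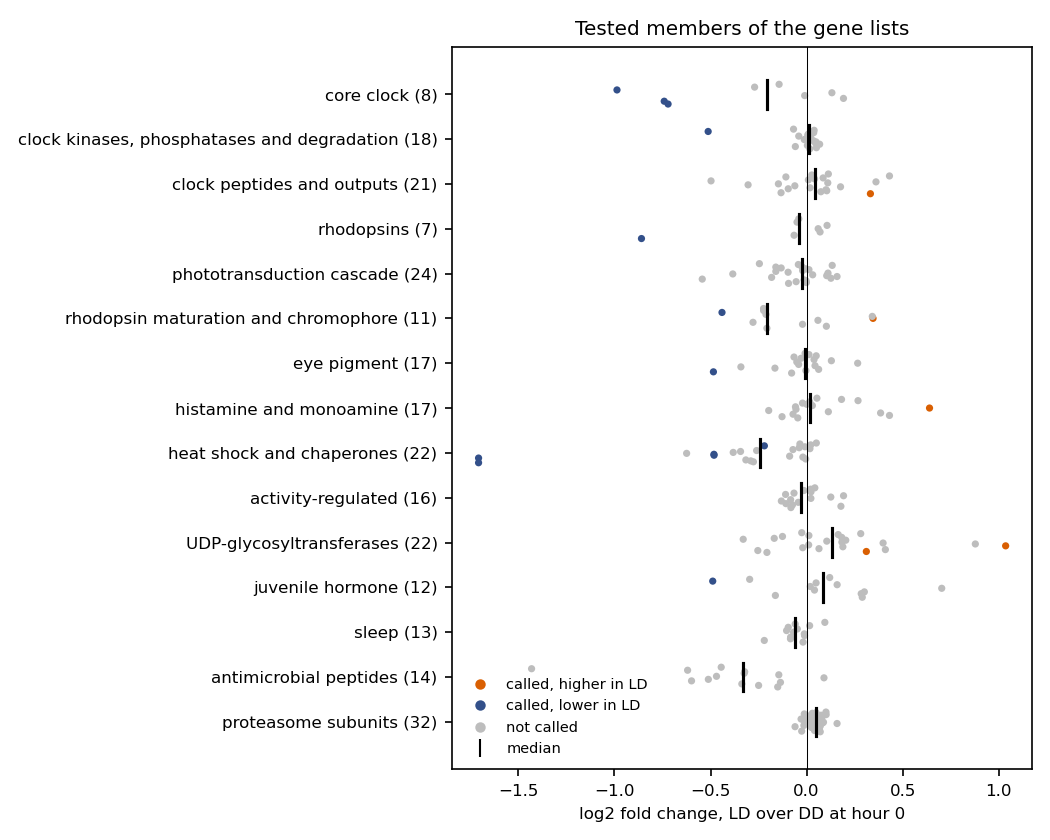
Log2 fold change of LD over DD at hour 0 (horizontal axis) of the tested members of 15 gene lists, with the number of tested members in brackets; each point is a gene, orange if called higher in LD, blue if called lower and grey otherwise, and the black bar is the list's median. Core clock and heat shock genes hold the most blue points, 3 and 5.

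Many lists held no called member without pairing, beside 0.884% called of all tested genes. At that share lists of these sizes would hold few calls, so the lack of calls does not set them apart. These were photolyases (3 genes, median log2 fold change -0.039), activity-regulated genes (16, -0.029), sleep genes (13, -0.059), ion channels of membrane rhythm (19, -0.05), fat synthesis and lipolysis (22, 0.034) and antioxidant genes (16, 0.083). The same held for proteasome subunits (32, 0.049), cytosolic ribosomal proteins (85, 0.028), glutathione transferases (31, 0.11), methionine cycle genes (11, 0.0088), odorant-binding proteins (32, -0.085), genes of the head fat body that differ by sex (10, 0.022) and Turandots, secreted stress proteins (4, -0.13). Among 14 antimicrobial peptide genes 0 were called and the median was -0.33, with 13 of 14 below 0, beside 5431 of 10967 tested genes. Drs (drosomycin), with the lowest log2 fold change of the 14, averaged 19.3 ± 7.89 CPM in LD and 51.9 ± 39.8 CPM in DD (-1.43, adjusted p = 0.486). Drs, AttC, DptA and DptB were also among the genes that differed most between replicate 1 and replicate 2. The 12 Bomanins, immune peptides of the Toll pathway, had 0 called members and a median of -0.28. The 29 tested genes of the mitochondrial genome had a median of 0.24 with 0 called.

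With pairing some lists gained members, beside 1.89% called of all tested genes. Cyp4d21 (sxe1), a P450 of the male head fat body, averaged 175 CPM in LD and 248 CPM in DD (log2 fold change -0.49, adjusted p = 0.00622 with pairing and 0.0622 without). Jheh2, a juvenile hormone epoxide hydrolase, averaged 281 CPM in LD and 228 CPM in DD (0.30, adjusted p = 0.0019 with pairing and 0.391 without). Lsp1beta, a storage protein of the fat body, averaged 77.8 CPM in LD and 203 CPM in DD (-1.25, adjusted p = 0.0144 with pairing and 0.0734 without). The sum of 8 fat body markers overlapped, at 16036 to 37652 CPM in LD and 19626 to 32597 CPM in DD, but was not compared within pairs. Ugt36A1, another UDP-glycosyltransferase, was higher in LD with pairing (0.39, adjusted p = 0.0265, against 0.467 without), as was Sdr, a secreted decoy of the insulin receptor (0.24, adjusted p = 0.0332, against 0.209 without).

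Also higher in LD with pairing were the glutathione transferases GstE9 (0.44, adjusted p = 0.00877, against 0.536 without) and GstZ2 (0.32, adjusted p = 0.0265, against 0.0816 without), the P450 Cyp9f3 (0.30, adjusted p = 0.0465, against 0.113 without) and the cuticle protein Cpr72Ec (0.48, adjusted p = 0.0125, against 0.079 without). Lower in LD with pairing were the P450 Cyp4c3 (-0.63, adjusted p = 0.00486, against 0.14 without), the cuticle protein Cpr11B (-0.70, adjusted p = 0.00287, against 0.0565 without) and the odorant-binding protein Obp56a (-0.88, adjusted p = 0.0028, against 0.0976 without). The same held for tobi (-0.79, adjusted p = 0.0498, against 0.0693 without), an alpha-glucosidase of the fat body, and for the chorion gene Cp18 (-1.03, adjusted p = 0.0483, against 0.0993 without), which averaged 0.609 CPM in LD and 1.24 CPM in DD.

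The other genes with the largest changes are mostly known by sequence alone. Higher in LD were CG9757 (log2 fold change 0.79), CG4842 (0.68), CG42329 (0.61), CG9519 of the GMC oxidoreductase family (0.59), CG10553 and CG10513 of the ecdysteroid kinase-like family (0.58 and 0.41), CG4115 (0.50), CG5653 (0.47), CG7079 (0.43), CG31321 (0.41) and serp (0.42), a chitin deacetylase, with adjusted p between 8.09e-06 for CG4842 and 0.0498 for CG4115. CG4842, with the smallest p of these, had 103, 103, 93.0 and 94.7 CPM in LD heads and 66.8, 63.7, 56.3 and 58.6 CPM in DD heads, without overlap. The call of CG42329 was lost without LD day 4 replicate 1, LD day 4 replicate 2, LD day 5 replicate 2 or any 1 of the DD libraries (adjusted p up to 0.178), and with all 96 libraries in the fit (adjusted p = 0.129). The call of CG4115 was lost without LD day 4 replicate 2, LD day 5 replicate 2, DD day 4 replicate 2, DD day 5 replicate 1 or DD day 5 replicate 2 (adjusted p up to 0.444), and without a filter on low counts or with a filter of 1 CPM (adjusted p = 0.0673 and 0.0535). The call of CG7079 was lost without LD day 4 replicate 2, LD day 5 replicate 2, DD day 4 replicate 1, DD day 5 replicate 1 or DD day 5 replicate 2 (adjusted p up to 0.305), without a filter on low counts, with a filter of 1 CPM or with day as a covariate (adjusted p = 0.0651, 0.0504 and 0.0533). That of serp was lost without LD day 4 replicate 2, DD day 4 replicate 1, DD day 5 replicate 1 or DD day 5 replicate 2 (adjusted p up to 0.194) and that of CG10513 without LD day 4 replicate 2, DD day 5 replicate 1 or DD day 5 replicate 2 (adjusted p up to 0.123).

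Lower in LD were CG5883 (-1.03), CG7402 (-0.83), CG4962 (-0.76), CG5646 (-0.74), CG7299 (-0.73), pre-lola-G (-0.72), CG11125 (-0.65) and, from the contrast with the other hours, CG13856 (-0.52), with adjusted p between 1.64e-05 for CG5646 and 0.0232 for CG5883. CG5646 had 22.4, 27.2, 20.7 and 21.962 CPM in LD heads and 36.9, 35.1, 38.4 and 43.4 CPM in DD heads, without overlap, and was as low over the other hours (-0.88, adjusted p = 1.79e-18). CG7299 averaged 0.068 over the other hours (adjusted p of the difference 0.000175). The call of CG5883 was lost without LD day 4 replicate 2, LD day 5 replicate 2, DD day 4 replicate 1 or DD day 5 replicate 1 (adjusted p up to 0.207), and that of CG11125 without DD day 5 replicate 1 (adjusted p up to 0.0714). The gene pre-lola-G lies within lola on the same strand and CG11125 overlaps Fa2h on the opposite strand, so their counts are uncertain.

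Of 593 long non-coding RNAs tested, 0 were called higher and 2 lower (0.483% and 0.401% of all tested genes), with a median log2 fold change of -0.085. With pairing neither was called, and 1 other of the 593 was called higher and 3 lower, beside 1.89% called of all tested genes. Higher in LD was lncRNA:CR45010 (1.61, adjusted p = 0.0422, against 0.0816 without). Lower were asRNA:CR43933 (-0.55, adjusted p = 0.003, against 0.157 without), lncRNA:CR44946 (-0.57, adjusted p = 0.03, against 0.217 without) and lncRNA:CR31781 (-0.26, adjusted p = 0.0498, against 0.51 without). The largest change of all 97 genes, that of lncRNA:cherub (-3.66, SE 0.92, adjusted p = 0.0358), came from 1 library: it had 0.245, 0.153, 0.12 and 0.0492 CPM in LD heads and 0.169, 0.111, 6.55 and 0.214 CPM in DD heads. Without DD day 5 replicate 1 the log2 fold change was -0.22, and in the day 4 libraries alone it was 0.458. The other, lncRNA:CR32582, averaged 1.41 CPM in LD and 2.40 CPM in DD (-0.75, adjusted p = 0.0348) and was not called with pairing (adjusted p = 0.0639) or without LD day 4 replicate 1, LD day 5 replicate 1, LD day 5 replicate 2, DD day 5 replicate 1 or DD day 5 replicate 2 (adjusted p up to 0.291).

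The LD minus DD difference at hour 0 was also compared between day 5 and day 4. It differed between the days for 0 genes by edgeR (156 genes at an unadjusted p under 0.05), for 2 genes by DESeq2 and for 1 gene with pairing. Each day holds 4 libraries at hour 0, and with day 4 alone 4 genes were called between LD and DD and with day 5 alone 14. All 4 pairs of vri, tim, per, Usp8, Ugt35B1, ple, CG34134, pinta, ninaE, Cnx99A, Hsp22 and Pdf had the same direction. That follows from the lack of overlap between their LD and DD values, so it is no separate comparison of the days.

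Hour 0 levels in darkness at other temperatures, scaled over all 96 libraries, place these values beside each other; they are a description and were not tested. In LD at 25 °C vri averaged 61.7 ± 6.38 CPM, and in DD 179.9 ± 22.5 CPM at 18 °C, 122 ± 13.8 at 25 °C and 130.2 ± 13.7 at 29 °C (SD, n = 4 each). For Ugt35B1 the LD average was 138 ± 16.983 CPM and the DD averages were 85.3 ± 4.41, 67.3 ± 10.038 and 53.0 ± 7.49 CPM at 18, 25 and 29 °C. In both genes the LD value at 25 °C lay outside the range of the 3 darkness averages.

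For ple the LD average was 105 ± 5.81 CPM and the DD averages were 67.9 ± 5.92, 67.3 ± 4.05 and 55.3 ± 6.14 CPM at 18, 25 and 29 °C. Hsp22 differed most between temperatures in darkness among the 6 genes given here, with 5.29 ± 0.987, 45.2 ± 20.2 and 112 ± 31.0 CPM at 18, 25 and 29 °C, and its LD value at 25 °C, 13.9 ± 2.42 CPM, lay between those at 18 and 25 °C. For per the LD average was 32.2 ± 4.90 CPM and the DD averages were 131 ± 30.1, 53.1 ± 5.86 and 60.5 ± 7.07 CPM at 18, 25 and 29 °C, so that LD was the lowest of the 4. ninaE was lowest in LD too, at 27161 ± 7022 CPM, against 38374 ± 7350.2, 49245 ± 8431 and 49346 ± 10223 CPM in DD at 18, 25 and 29 °C.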

How the data were processed

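The authors deposited expected counts (estimated counts, with no normalization) for 17610 genes, made from the reads of each library; 40.2% of the nonzero values are not whole. Per the submitters' processing notes the tools were fastp 0.23.2, HISAT2 2.2.1 and featureCounts (Subread 2.0.8); their settings, the strand option and the genome build are not given in the sources used here. Per the labels' protocols, RNA was purified on columns, treated with DNase and made into strand-specific poly(A) libraries.

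Whole numbers had been assumed when the tests were chosen; the values were rounded and the tests kept. The 48 libraries at 25 °C were scaled with TMM factors and fitted in edgeR 4.0.16 (R 4.3.3) with 1 mean for each of the 12 groups of condition and hour (36 residual degrees of freedom), after filterByExpr left 10967 genes. LD minus DD at hour 0, that difference against the mean of the other 5 hours, and day 5 against day 4 were tested, with Benjamini-Hochberg adjustment over all 10967 genes at 0.05. CPM are counts per 1e+06 on TMM-scaled totals; depth of 17.3 to 27.2 M counts bears on counting error only, and PCR copies were not told apart by molecular identifiers. P-values measure the spread between libraries, which the series calls biological replicates, and count the libraries of a group as independent. Day 4 and day 5 libraries of the same replicate number were more alike than libraries of different numbers. In LD at hour 0, chi-square per gene (how far counts differ) was 11.0 and 12.1 for the same number and 85.3 to 187 otherwise. In DD it was 20.8 and 23.4, against 45.5 to 90.7. Whether the days are independent was not tested, and if they are not, p-values are too small. Symbols, positions and overlaps came from the BDGP6.54 annotation (17607 identifiers matched), which may not be the authors' build.

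Each LD library shared day, hour and replicate number with 1 DD library. Over 8347 genes the deviations of the 4 hour 0 pairs from their group means correlated at 0.699, 0.824, 0.778 and 0.584. All were above the set limit, so the numbers were taken to pair the libraries. LD and DD libraries of the same replicate number but different days correlated at 0.613, 0.675, 0.660 and 0.499. These ranges overlap, so the values show a shared replicate number more than a shared day, and pairing by day was not tested apart. The paired fit (replicate block) is given where it changes the call of a named gene or list member. Whether the pairs shared a collection is not stated in the labels. The members and gene lists were chosen with earlier results of these data known. Genes are named if called, at 5 CPM or more and without overlap, and among the 14 largest changes in a direction; if in the core clock, photolyase or rhodopsin lists; if among the first 4 called genes of another list; or if among the 6 smallest p of a direction in a contrast. Genes called only with pairing, list members given as examples without a call (dco, sgg, Drs), and those of 2-fold change or in the closing observations outside this rule, were named after their values were seen. DESeq2 1.42.0 and the other alternatives are in the closing section. The tests were also tried on simulated counts.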

Additional observations from a re-analysis of the deposited data

Results flagged for a closer look

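Of 130 groups of 4 libraries (65 named genes in LD and in DD), 5 held a library whose gap to the nearest of the others took up nearly the whole range; chance gives about 1 in 20 groups. These were LD day 5 replicate 2 for CG7299 (39.5 CPM), DD day 5 replicate 2 for TwdlT (9.35 CPM), DD day 4 replicate 2 for Rh7 (13.8 CPM), DD day 5 replicate 1 for lncRNA:cherub (6.55 CPM) and DD day 4 replicate 1 for Cln3 (13.3 CPM).

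For 29 of the 65 named genes the LD minus DD difference at hour 0 differed from the mean of the other 5 hours by the test of that contrast (log2, LD over DD). It lay above the other hours for CG34134 (2.10), Jhe (1.62), Ugt35B1 (1.58), CG42329 (1.2), CG14329 (1.05), CG9757 (0.98), TwdlT (0.91), CG10513 (0.80), CG9519 (0.79), ple (0.67), Clk (0.65), CG4842 (0.62), CG31321 (0.57), serp (0.52), CG5653 (0.46), pinta (0.44), cry (0.31), Ugt302C1 (0.30) and Cyp6a17 (0.28). It lay below the other hours for vri (-1.0), Cln3 (-0.86), CG7299 (-0.80), snoRNA:Or-CD16 (-0.76), per (-0.69), CG13856 (-0.68), tim (-0.59), Tsp (-0.58), Usp8 (-0.45) and Hydr2 (-0.35).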

How the results depend on the processing

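The count of genes called at hour 0 (97) stayed within 1.5 times under DESeq2 size factors (99), no filter on low counts (79), a filter of 1 CPM in 4 libraries (92), DESeq2's Wald test (124), all 96 libraries in the fit (108) and day as a covariate (109). It was 207 with the replicate block. With fewer libraries it was 5 in the 8 hour 0 libraries alone, 4 with day 4 alone, 14 with day 5 alone and 355 in the 8 libraries with the replicate block, and it ranged from 2 to 101 with libraries left out, where the lowest values leave out all replicate 1 (34) or all replicate 2 libraries (2). The count at 2-fold (10) was 1 in the 8 libraries alone, 0 with day 4 alone, 6 with day 5 alone and 18 in the 8 libraries with the replicate block, and ranged from 1 to 16 with libraries left out. The count unlike the other hours (81) was 169 with the replicate block and ranged from 15 to 72 with libraries left out. The count unlike between days (0) was 3 without a filter, 2 by DESeq2's Wald test, 1 with the replicate block and from 0 to 4 with libraries left out. The fits by replicate number and those of the 8 libraries with the block were chosen after seeing the data.

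Of the 47 named genes called at hour 0, 28 were called whichever of the 8 libraries was left out. Pdf, JhI-21, Hex-A, Cyp6a20, CG4115, CG7079, lncRNA:CR32582 and lncRNA:cherub also lost their calls without a filter on low counts. With the replicate block 2 calls were lost and Cln3 was gained. Among the named genes called at hour 0 only lncRNA:cherub changed direction, to 0.458 with day 4 alone. Depth, at 17.3 M counts or more, limits genes of a few CPM most.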

Other observations

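Of the other genes called at hour 0, 4 are given here, picked after their values were seen; libraries were not left out in turn for them. Gad1, which makes GABA, had 379.9, 356, 394 and 328 CPM in LD heads and 321, 291, 309 and 271 CPM in DD heads (log2 fold change 0.29, adjusted p = 0.0283). Gabat, which breaks GABA down, had 245, 277, 254 and 265 CPM in LD heads and 218, 239.6, 208 and 215 CPM in DD heads (0.24, adjusted p = 0.0142); it overlaps Tom20 on the opposite strand. Both were higher in LD over the other hours too, by 0.31 and 0.18. Mip, a neuropeptide precursor, was lower in LD, at 94.0 ± 2.83 CPM, against 116 ± 4.54 CPM in DD (-0.31, adjusted p = 0.0193). So was crc, the fly ATF4 of the integrated stress response, at 744 ± 17.7 CPM in LD and 889 ± 6.92 CPM in DD (-0.26, adjusted p = 0.0075). It overlaps CG46314 on the same strand, which was also called (-0.25, adjusted p = 0.00328), so reads may have been divided between them. For crc and Mip the differences over the other hours, -0.26 and -0.39, had the same direction.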
